A study of Homo sapiens with 6 samples.

Results

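The genes described here are 8 genes of the FOXO pathway: the transcription factors FOXO1, FOXO3 and FOXO4, the insulin signalling genes IRS2 and INSR, and CCNG2, TSC22D3 and BCL6, which FOXO factors can switch on. They are 8 of the 18417 genes that the arrays measured under a single name. They were chosen by name with earlier results of these same arrays, their group difference included, already known, so how many of them differ is not independent evidence about the pathway. Each had 1 probe set (the group of array probes that is summarised into 1 value) paired with its symbol alone, so no choice between probe sets was needed.

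The samples were 6 RNAs from HCT116, an established human colorectal carcinoma line kept in medium with serum, each hybridised to whole-transcript Affymetrix arrays. There were 3 arrays labelled control, from cells given an siRNA against GFP, a protein the cells do not make, and 3 labelled siChe-1, from cells given an siRNA against Che-1, the product of AATF. RNA was taken 48 h after transient transfection, and 6 micrograms went into each labelling. By its labels the study compared cells depleted of Che-1 with cells that were not. No label says that the replicates were separate cultures, so each p-value reflects the scatter of these arrays alone, and that scatter may be technical.

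FOXO factors are forkhead transcription factors that insulin and growth factors hold in check. When the insulin receptor is active, IRS adaptors recruit PI3K, AKT is switched on, and AKT phosphorylates FOXO proteins, which then leave the nucleus. When the signal falls, FOXO proteins return to the nucleus and turn on genes that slow the cell cycle, resist stress and, through INSR and IRS2, raise sensitivity to insulin again. This control acts largely on the proteins, and mRNA arrays do not see it.

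The targeted gene did not follow the labels. AATF read 7.55, 7.75 and 7.55 on the arrays labelled control and 8.53, 8.81 and 8.87 on those labelled siChe-1 (log2 RMA intensity), a difference of 1.12 ± 0.13 (SE, limma adjusted p = 0.00122). Groups are therefore named by their labels alone, "higher" and "lower" give the siChe-1 label against the control label, and all signs would turn if the labels were swapped. The array labelled siChe-1 replicate 1 stood apart: its correlation with the other arrays of its group over all genes was 0.984 and 0.986, while the other pairs within a group lay between 0.994 and 0.996. Results for the 8 genes are given with and without it. Of 10 epithelial markers, KRT8 lay between 12.0 and 12.6 and EPCAM between 9.93 and 10.6 on all 6 arrays. Their differences were -0.39 and -0.30. KRT19 was lower and ELF3 higher at an adjusted p under 0.05, 8 did not pass, and the villin gene VIL1 read only 3.57 to 3.76. At an unadjusted p under 0.05 by limma, 2 of the 10 were higher and 3 lower. None of 11 leukocyte markers and none of 10 fibroblast and endothelial markers passed by limma, and 2 and 1 of them were higher at an unadjusted p under 0.05. Over all genes that threshold was passed by 7.88% in the higher and 9.77% in the lower direction. Summed over its list, the log2 level of the leukocyte markers was 37.1 to 37.5 on the control arrays and 37.8 to 38.6 on those labelled siChe-1, and that of the fibroblast and endothelial markers 37.4 to 37.8 and 37.7 to 39.7. Their part in the results was not tested. The table has no detection calls, and the leukocyte markers ran from 2.28 to 6.20 with a median of 3.31, so how much of a low value is background is unknown. In RNA from a whole culture, a change in every cell cannot be told apart from a change in a share of the cells.

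Promoter sequence is shown for the members whose levels separated the labelled groups most widely on the arrays. The windows are RefSeq's, on build GRCh38.p14, from 250 bases before to 50 bases after an annotated start and written in the direction of the gene. Capitals mark the core of the forkhead binding motif, GTAAACA, searched on both strands (TGTTTAC on the other). The windows are CCNG2 at chr4:77156957-77157256 on the plus strand, the only 1 of 4 annotated TSC22D3 windows that holds the motif at chrX:107717013-107717312 on the minus strand, the more upstream of 2 BCL6 windows at chr3:187745419-187745718 on the minus strand, and FOXO4 at chrX:71095601-71095900 on the plus strand.
CCNG2: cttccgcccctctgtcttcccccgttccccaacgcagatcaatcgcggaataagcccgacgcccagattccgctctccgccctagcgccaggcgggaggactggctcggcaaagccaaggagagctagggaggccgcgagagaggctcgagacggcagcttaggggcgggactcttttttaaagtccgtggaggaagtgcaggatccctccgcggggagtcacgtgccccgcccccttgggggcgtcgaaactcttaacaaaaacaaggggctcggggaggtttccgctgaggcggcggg
TSC22D3: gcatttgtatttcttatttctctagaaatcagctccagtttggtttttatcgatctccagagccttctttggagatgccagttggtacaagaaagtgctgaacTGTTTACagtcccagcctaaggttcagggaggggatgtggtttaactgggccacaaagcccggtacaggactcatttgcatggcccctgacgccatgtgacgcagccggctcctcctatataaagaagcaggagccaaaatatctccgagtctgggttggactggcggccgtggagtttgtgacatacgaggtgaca
BCL6: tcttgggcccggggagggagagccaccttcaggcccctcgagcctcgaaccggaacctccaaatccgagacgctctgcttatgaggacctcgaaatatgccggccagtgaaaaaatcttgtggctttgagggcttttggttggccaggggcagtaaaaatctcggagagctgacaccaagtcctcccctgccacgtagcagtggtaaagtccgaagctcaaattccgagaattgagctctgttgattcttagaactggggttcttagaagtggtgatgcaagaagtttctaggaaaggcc
FOXO4: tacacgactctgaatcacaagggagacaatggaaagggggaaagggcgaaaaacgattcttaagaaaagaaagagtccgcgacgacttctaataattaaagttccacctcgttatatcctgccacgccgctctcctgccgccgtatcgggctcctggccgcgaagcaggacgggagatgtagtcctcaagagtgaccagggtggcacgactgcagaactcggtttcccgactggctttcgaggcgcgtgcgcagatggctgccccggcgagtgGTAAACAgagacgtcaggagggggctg

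All 8 genes had windows, 15 in all, and the motif was present in 2 of them, those of TSC22D3 and FOXO4 printed here. In the TSC22D3 window it began at position -147 from the start, on the strand opposite to the gene, and in the FOXO4 window at position 24 after the start, on the gene's own strand. Of all 35116 RefSeq windows of this length, 3.42% hold it. A second motif, CAAAACA, the core of the insulin response sequence (TGTTTTG on the other strand), was found in 1 member window, that of IRS2 at position -40, against 4.92% of all windows, and no member window held both. These matches are letters in a window: the array does not say which start a transcript used, and a window without the motif says nothing of sites elsewhere.

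Among the candidate target genes, the cyclin gene CCNG2 and the glucocorticoid-induced leucine zipper gene TSC22D3 showed the widest separation, each more than doubling on the intensity scale, and BCL6 stood about 1.5 times higher. CCNG2 encodes cyclin G2, an unusual cyclin that goes with cell cycle arrest rather than progression. It read 6.27, 6.21 and 6.19 on the arrays labelled control and 7.20, 7.45 and 7.66 on those labelled siChe-1 (log2 RMA intensity). The control values lay within 0.081 of each other, and every array labelled siChe-1 was above every control array. The difference was 1.22 ± 0.14 (SE; 95% confidence interval 0.91 to 1.52), or 2.32-fold, with limma adjusted p = 0.000897. The value without siChe-1 replicate 1 was 1.34 ± 0.11.

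TSC22D3, also called GILZ, encodes a small leucine zipper protein that restrains inflammatory transcription factors. Its 3 control arrays read 5.26, 5.37 and 5.35, and the 3 arrays labelled siChe-1 read 6.19, 6.43 and 6.71. The groups were again separate, with the wider spread on the siChe-1 side (SD 0.26 against 0.057, n = 3 each). The difference was 1.11 ± 0.15 (SE; interval 0.79 to 1.44), or 2.16-fold, with limma adjusted p = 0.00219. Leaving out siChe-1 replicate 1 gave 1.24 ± 0.12. How much of its control level is background is unknown, which bears on the size of the fold.

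BCL6 encodes a zinc finger repressor of transcription, best known from germinal centre B cells. It read 6.09, 6.03 and 6.18 on the arrays labelled control and 6.86, 6.59 and 6.68 on those labelled siChe-1. The groups did not overlap, and here replicate 1 was the highest array of its group, where for CCNG2 and TSC22D3 it was the lowest. The difference was 0.61 ± 0.12 (SE; interval 0.34 to 0.89), or 1.53-fold, with limma adjusted p = 0.0229. The call was lost without any 1 of the 3 control arrays or without siChe-1 replicate 3 (limma adjusted p 0.0720 to 0.116), with differences between 0.58 and 0.65, and it held without siChe-1 replicate 1 (0.54 ± 0.11) or 2.

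**Figure D1:**
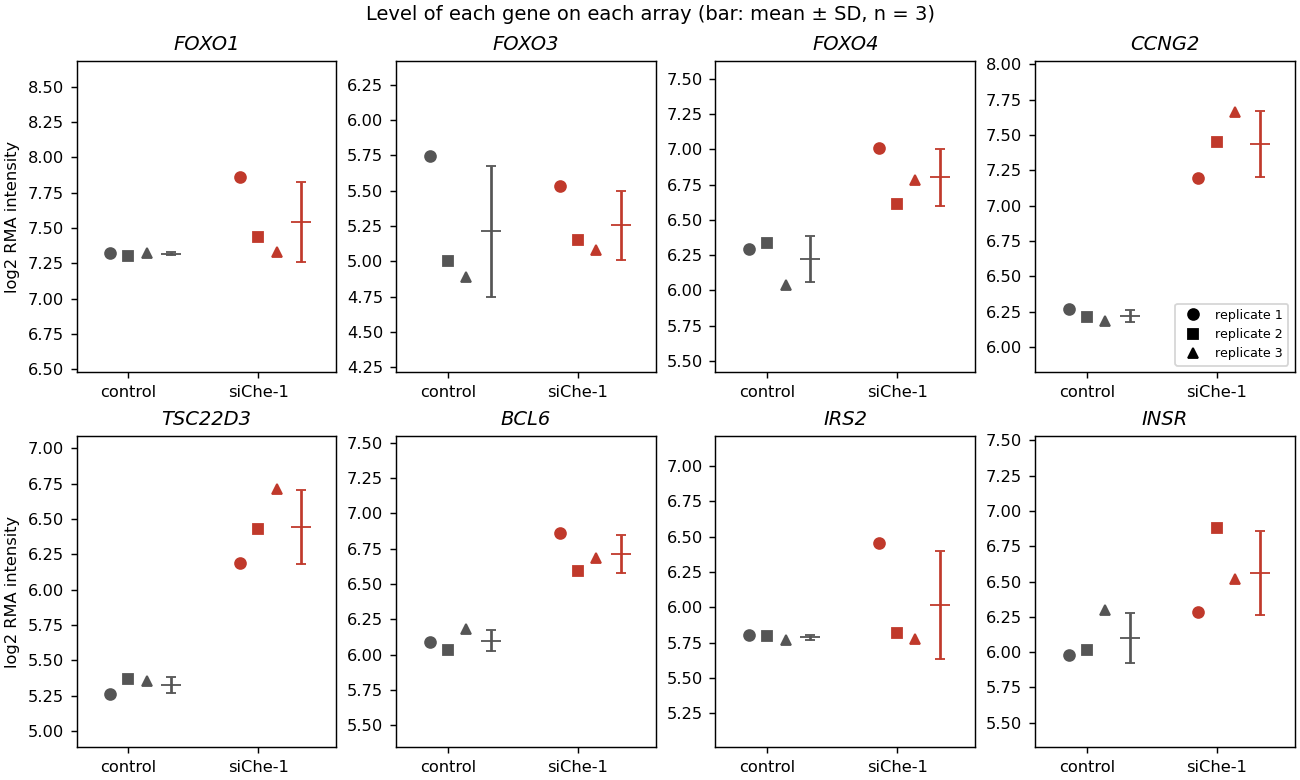
Level of each of the 8 genes on each array, in log2 RMA intensity, for the arrays labelled control (grey) and siChe-1 (red), with replicate number by symbol and mean ± SD beside (n = 3). All panels span the same number of log2 units: CCNG2, TSC22D3, BCL6 and FOXO4 show groups well apart, while for FOXO1 and IRS2 siChe-1 replicate 1 lies far above the other arrays.

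Of the FOXO genes themselves, FOXO4 lay next to the threshold, and FOXO1 and FOXO3 did not pass with or without siChe-1 replicate 1. FOXO4, on the X chromosome, read 6.29, 6.34 and 6.04 on the control arrays and 7.01, 6.61 and 6.78 on those labelled siChe-1. The groups were separate, and the difference of 0.58 ± 0.14 (SE; interval 0.26 to 0.90), or 1.49-fold, fell just outside the threshold with limma adjusted p = 0.0560. Without siChe-1 replicate 1 it was 0.47 ± 0.13 and passed (limma adjusted p = 0.0485).

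FOXO1, which together with FOXO3 is the most studied of the family in metabolism, read 7.33, 7.30 and 7.33 on the control arrays and 7.86, 7.44 and 7.33 on those labelled siChe-1. The 3 control arrays differed by only 0.022, and the lowest siChe-1 array lay above the highest of them by far less than that. The groups thus did not overlap, but by a margin smaller than the spread between control arrays. The difference was 0.22 ± 0.15 (SE; interval -0.11 to 0.55, limma adjusted p = 0.491). Without siChe-1 replicate 1 it was 0.065 ± 0.11, so most of the difference lay on that array.

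FOXO3 is the factor on the best-known route to cell death and stress resistance. It read 5.74, 5.0 and 4.89 on the control arrays and 5.53, 5.15 and 5.08 on those labelled siChe-1, and in each group replicate 1 was the highest. The groups overlapped, and the difference was 0.042 ± 0.22 (SE; interval -0.45 to 0.53, limma adjusted p = 0.947). The sign of this difference turned with quantile normalization (-0.012) and with centring of the arrays (-0.022), and the wide interval does not show that FOXO3 stayed level. How far these values lie above background is unknown. A second probe set is shared between FOXO3 and FOXO3B, its near-identical copy, and was not used for the gene's level. It read 9.10, 8.81 and 8.99 on the control arrays and 8.92, 9.09 and 9.04 on those labelled siChe-1, a difference of 0.053 ± 0.12 (SE; interval -0.24 to 0.34, limma adjusted p = 0.894 in a fit of all probe sets). That interval is narrower, but the signal cannot be assigned to one of the copies.

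Neither insulin signalling gene passed with all 6 arrays, and the same array was low for one and high for the other. INSR, the insulin receptor, read 5.98, 6.02 and 6.30 on the control arrays and 6.29, 6.88 and 6.52 on those labelled siChe-1. The lowest siChe-1 array, replicate 1, lay just under the highest control array, so the groups overlapped by that single value. The difference was 0.46 ± 0.17 (SE; interval 0.092 to 0.83), or 1.38-fold, and did not pass (limma adjusted p = 0.173). Without siChe-1 replicate 1 the difference was 0.60 ± 0.15, and it passed (limma adjusted p = 0.0336).

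IRS2, the adaptor that links the receptor to PI3K, read 5.80, 5.80 and 5.77 on the control arrays and 6.46, 5.82 and 5.77 on those labelled siChe-1. The groups overlapped: replicates 2 and 3 labelled siChe-1 lay at the control level, and replicate 1 alone was high. The difference was 0.23 ± 0.18 (SE; interval -0.16 to 0.62, limma adjusted p = 0.565), and without that array it was 0.0070 ± 0.10.

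**Figure D2:**
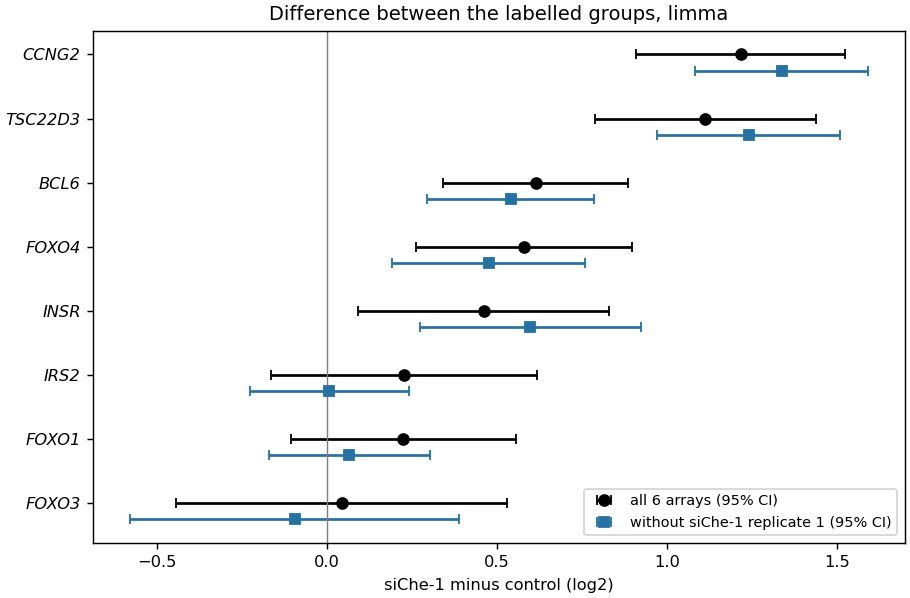
Difference of each gene between arrays labelled siChe-1 and control, in log2 units, with 95% confidence intervals from limma, for all 6 arrays (black circles) and without siChe-1 replicate 1 (blue squares). CCNG2 at 1.22 and TSC22D3 at 1.11 lie furthest from 0. Without that array FOXO1 falls from 0.22 to 0.065 and IRS2 from 0.23 to 0.0070, while INSR moves up from 0.46 to 0.60.

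Counted together, 3 of the 8 genes were higher at an adjusted p under 0.05, none was lower (also at an unadjusted p under 0.05, by limma) and 5 did not pass, where 1.19% of all genes were called higher. The genes were chosen with this contrast known, so nothing is read from the count. All 8 differences were above 0, that of FOXO3 only without further normalization, and their median was 0.52, against 0.0051 over all genes. In 5 of the 8 the lowest siChe-1 array was above the highest control array, against 10.6% of all genes. The exact two-sided permutation test of a single gene's 6 values cannot go below p = 0.1 with 3 arrays against 3, and CCNG2, TSC22D3, BCL6, FOXO4 and FOXO1 each reached that value. Without siChe-1 replicate 1 the called genes were 5, with FOXO4 and INSR added, while over all genes the share called higher became 4.01% and the share called lower 4.48%, 7 differences were above 0, and FOXO3 was at -0.096.

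The genes also differed in sign on siChe-1 replicate 1, which is a description of 1 array. Relative to the mean of the other 2 arrays of its group, that array was lower for INSR by 0.41, for TSC22D3 by 0.38 and for CCNG2 by 0.36 (log2 units). On the same array IRS2 was higher by 0.66, FOXO1 by 0.48, FOXO3 by 0.41, FOXO4 by 0.31 and BCL6 by 0.22. AATF sided with the first set and was lower there by 0.31. Gaps of like size occurred between other arrays. FOXO3 on control replicate 1 lay 0.53 above its group mean, and INSR read 6.88 and 6.52 on siChe-1 replicates 2 and 3. What sets this array apart was not tested.

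**Figure D3:**
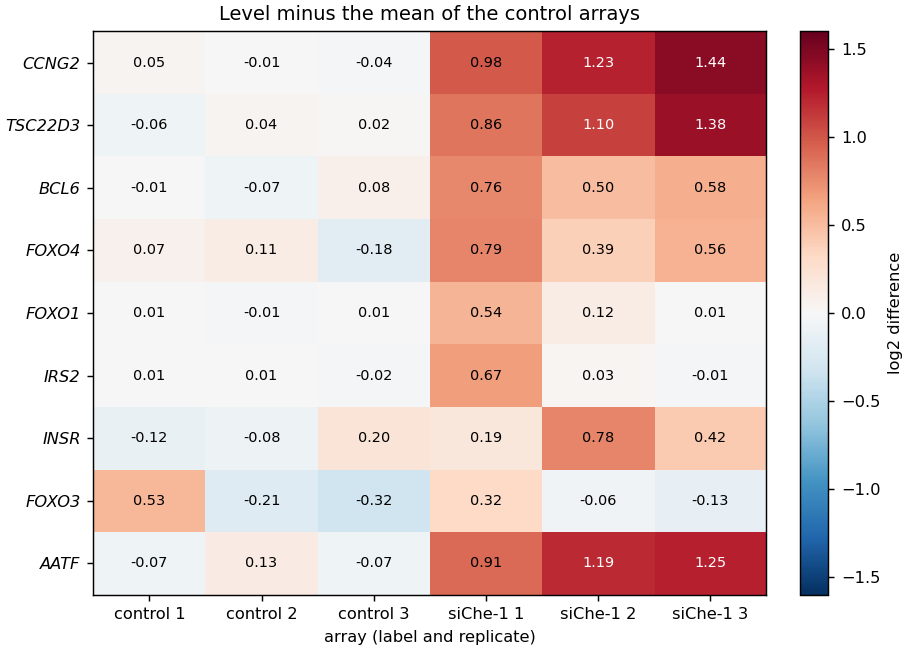
Level of each gene on each array minus the mean of its 3 control arrays, in log2 units (colour and printed value), with AATF in the last row. In the siChe-1 columns CCNG2 and TSC22D3 are lowest on replicate 1 (0.98 and 0.86) and highest on replicate 3 (1.44 and 1.38), as AATF is (0.91 and 1.25), while FOXO1 and IRS2 stand out on replicate 1 alone (0.54 and 0.67).

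As a description of pattern, each gene was set against the genes whose mean over the 6 arrays was at or above the median of all genes. Of these 9208 genes the one most like CCNG2 was TSC22D3, and the one most like TSC22D3 was CCNG2 (Pearson r = 0.994 over the 6 arrays, and 0.995 over the 5 without siChe-1 replicate 1). Over the 6 arrays, UBXN2B came next for CCNG2 (r = 0.993) and CEP20 for TSC22D3 (r = 0.989). Without siChe-1 replicate 1 this order turned. UBXN2B then stood above TSC22D3 for CCNG2 (r = 0.997), and CEP20 above CCNG2 for TSC22D3 (r = 0.999). BCL6 was most like FBXO44 (r = 0.993) and the stress-responsive gene NDRG1 (r = 0.990), FOXO4 like OGFRL1 (r = 0.996) and GPAT2P2 (r = 0.994), and INSR like the kinase gene FRK (r = 0.994) and the copper chaperone gene CCS (r = 0.988). FOXO1 was most like GATA2 (r = 0.998) and RAB11B (r = 0.997), and IRS2 most like MARCHF9 (r = 0.997) and SIGIRR (r = 0.992). For IRS2 the likeness came mostly from siChe-1 replicate 1, since without it r was 0.595 for MARCHF9 and 0.646 for SIGIRR. FOXO3, against 9209 genes, had the least close partners, CMPK1 (r = 0.963) and the small nucleolar RNA SNORD33 (r = 0.949). With arrays in 2 groups, any pair of genes that differ between the groups correlates, so these values rank patterns and show no link.

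The rest of the pathway was examined through 9 lists, which held 191 genes, 179 of them measured. Of these 179, 8 were higher and 7 lower, that is 4.47% and 3.91%, where over all genes 1.19% were higher and 2.52% lower. Their median difference was 0.049. The lists come from textbook knowledge and were written with earlier results of these arrays known, so nothing is read from the shares. Leaving out siChe-1 replicate 1 raises calls over all genes to 4.01% higher and 4.48% lower, and list counts from that fit stand against these. Of the 16 receptors and adaptors of the insulin and IGF pathway, with a median difference of 0.069, only 1 passed, and it was lower. The lower gene was GRB10, an adaptor that binds the insulin receptor and dampens its signal. It read 8.41, 8.15 and 8.59 on the control arrays and 6.32, 7.16 and 6.69 on those labelled siChe-1, so every siChe-1 array was far below the controls. The difference was -1.66 ± 0.20 (SE), which is 3.16-fold lower, with limma adjusted p = 0.00145, and it passed whichever single array was left out.

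None of 21 kinases and subunits of the PI3K and AKT cascade passed by limma (median 0.039), with 4 higher and 1 lower at an unadjusted p under 0.05 (7.88% and 9.77% of all genes). With array weights 5 passed, all higher, in a fit that called 15.6% of all genes (1348 higher and 1517 lower). Without siChe-1 replicate 1 a single gene passed, MAPKAP1, a subunit of the AKT-activating complex mTORC2 (0.45 ± 0.11, limma adjusted p = 0.0306). The nearest with all arrays were SGK2 (0.46, adjusted p = 0.0682) and PIK3C2B (0.47, adjusted p = 0.123). SGK2 is a relative of AKT and PIK3C2B a class II PI3K. Of 15 genes that restrain the cascade, 3 were higher, none was lower (1 at an unadjusted p under 0.05, by limma) and 12 did not pass (median 0.11). That 1 gene, named after its values were seen, is PHLPP2, a phosphatase that acts on AKT. It read 6.43, 5.90 and 5.94 on the control arrays and 5.24, 5.72 and 5.39 on those labelled siChe-1, a difference of -0.64 ± 0.18 (SE, limma adjusted p = 0.0801). It passed with centring (adjusted p = 0.0485) and with array weights (0.00666), and in no fit that left out a single array (0.0568 to 0.270). TRIB3, a pseudokinase that binds AKT and is also induced by amino acid stress, read 7.0, 7.0 and 7.10 against 7.87, 7.97 and 7.66, a 1.74-fold rise (0.80 ± 0.12, SE, limma adjusted p = 0.00607). INPP4B, a phosphatase of PI3K's lipid products, was 1.58-fold higher (adjusted p = 0.0443), and PPP2R5C, a regulatory subunit of the phosphatase PP2A, was 1.50-fold higher (adjusted p = 0.0276). The calls of INPP4B and PPP2R5C held without siChe-1 replicate 1 and were lost without any other single array (adjusted p up to 0.187 and 0.125).

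Of 30 genes whose products modify or partner FOXO proteins, 2 were higher, none was lower and 28 did not pass (median -0.012). At an unadjusted p under 0.05 by limma, 5 were higher and 1 lower, against 7.88% and 9.77% of all genes. MAPK9, which encodes the stress kinase JNK2, read 8.18, 8.0 and 8.06 on the control arrays and 8.84, 8.81 and 8.86 on those labelled siChe-1, a 1.69-fold rise (limma adjusted p = 0.00473). SETD7, a lysine methyltransferase with FOXO3 among its substrates, was 1.68-fold higher (limma adjusted p = 0.0189), a call lost without any single array other than siChe-1 replicate 1 (up to 0.104). Without siChe-1 replicate 1, 6 genes of this list were higher and 1 was lower, in a fit that called 4.01% of all genes higher and 4.48% lower.

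Other genes described as FOXO targets were called in both directions. The lists do not separate targets switched on by FOXO factors from targets switched off, so no FOXO activity is read from the directions. Among 18 that act in the cell cycle and DNA repair, none was higher and 1 was lower, with a median of -0.0082. At an unadjusted p under 0.05 by limma, 3 were higher and 3 lower, against 7.88% and 9.77% of all genes. GADD45A, a growth arrest and DNA damage gene, read 8.97, 8.73 and 8.82 against 8.30, 8.33 and 8.31, a 1.44-fold fall (limma adjusted p = 0.0374). Among 24 that act in cell death and stress, the median was 0.039, with 1 higher, 2 lower and the other 21 not passing. At an unadjusted p under 0.05 by limma, 5 of the 24 were higher and 3 lower. SESN3, a sestrin that restrains mTOR signalling, read 4.69, 4.92 and 4.56 on the control arrays and 5.66, 7.01 and 6.75 on those labelled siChe-1, a measured 3.35-fold rise (limma adjusted p = 0.00902), with replicate 1 again the lowest of its group. The autophagy gene ATG12 was 1.94-fold lower (adjusted p = 0.00464). TNFSF10, which encodes the death ligand TRAIL, read 2.83, 3.56 and 3.41 against 2.50, 2.41 and 2.60 (adjusted p = 0.0469). Among 19 that act in metabolism and signalling, IL7R was lower (3.23, 4.08 and 3.70 against 2.58, 2.52 and 2.59, adjusted p = 0.0103) and 18 did not pass (median 0.10). At the same unadjusted threshold, 5 of the 19 were higher and 1 lower. For TNFSF10 and IL7R, and for SESN3 on the control arrays, how much of the reading is background is unknown. Calls were lost without control replicate 1 or 3 for SESN3, without control replicate 3 for IL7R, and without replicate 2 or 3 of either group for TNFSF10, and that of GADD45A held only without siChe-1 replicate 1 among the single arrays. Without siChe-1 replicate 1, the cell cycle list had 2 genes higher and 2 lower, and the death and stress list 3 higher and 2 lower, again against 4.01% and 4.48% of all genes.

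**Figure D4:**
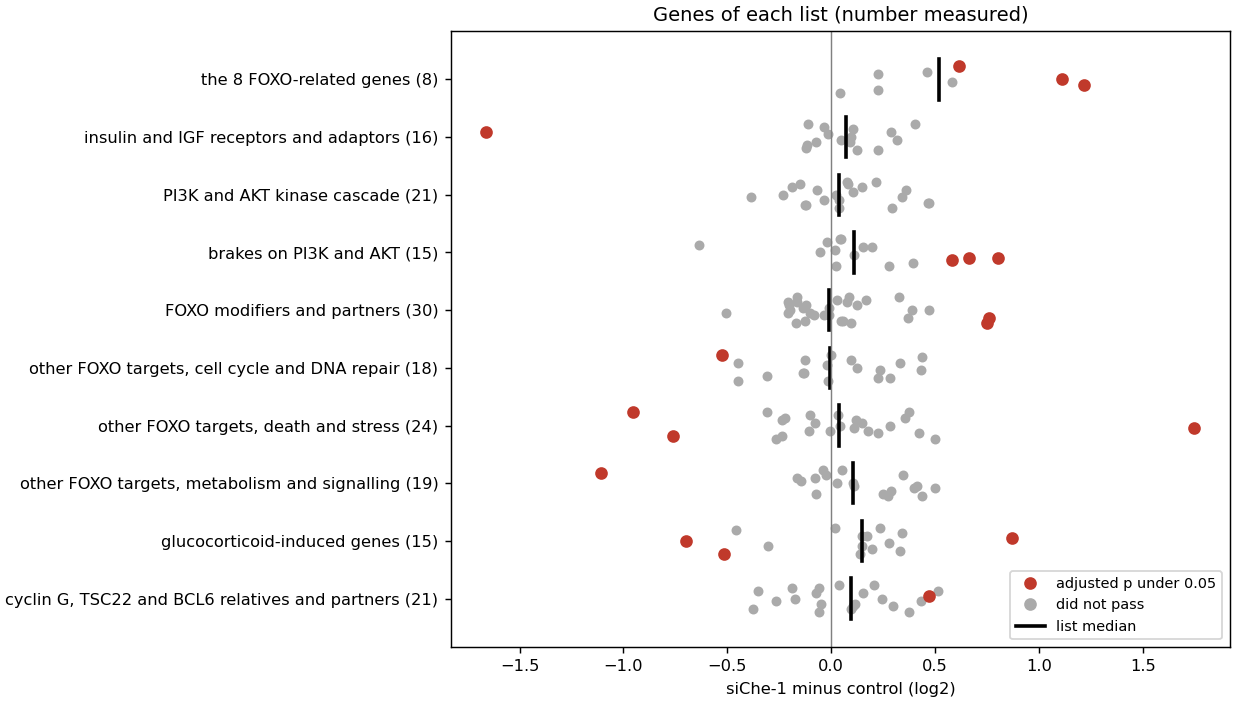
Difference between arrays labelled siChe-1 and control (log2) of every measured gene of the 8 and of the 9 pathway lists, with the number measured in parentheses, genes with adjusted p under 0.05 in red and list medians as black bars. The 9 list medians lie between -0.012 and 0.15, and within these lists the points furthest from 0 are GRB10 at -1.66, IL7R at -1.11 and SESN3 at 1.75.

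TSC22D3 is a classic target of the glucocorticoid receptor as well, so a list of 15 other genes was examined. It holds glucocorticoid-induced genes and the gene of the receptor itself, NR3C1 (difference -0.46, did not pass). FKBP5 was also listed but was not measured under a single name. Their median difference was 0.15, and 3 passed, 1 of them higher and 2 lower, where 1.19% of all genes were called higher and 2.52% lower. Without adjustment, at a limma p under 0.05, 2 were higher and 3 lower. RGS2, a brake on G protein signalling, was 1.83-fold higher (limma adjusted p = 0.0157), the metallothionein gene MT2A was 1.62-fold lower (adjusted p = 0.0192), and the MAP kinase phosphatase gene DUSP1 was 1.43-fold lower (adjusted p = 0.0435). Among 21 relatives and partners of cyclin G2, TSC22D3 and BCL6, the histone deacetylase gene HDAC5 was 1.38-fold higher (6.50, 6.45 and 6.47 against 7.0, 6.94 and 6.88, limma adjusted p = 0.0478), none was lower and 20 did not pass (median 0.094). At an unadjusted p under 0.05 by limma, 4 of these were higher and 2 lower, against 7.88% and 9.77% of all genes, and leaving out siChe-1 replicate 1 gave 2 called higher and 1 lower. Of the 15 called genes in the 9 lists, GRB10, TRIB3, MAPK9 and ATG12 kept their call whichever single array was left out, and the other 11 lost it in at least 1 of the 6 such fits. In this last group, RGS2 lost it without replicate 3 of either group or control replicate 1, MT2A without any control array or siChe-1 replicate 3, and DUSP1 and HDAC5 without any array other than siChe-1 replicate 1.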

How the data were processed

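The authors deposited 1 table of log2 intensities for the 6 arrays, for which the submitters' processing notes name RMA and Affymetrix Expression Console. Their versions and genome build are not given in the sources used here. RMA normally includes quantile normalization, which hides changes in total RNA, and compresses dim genes. Array medians lay between 4.95 and 5.05. Of 33297 probe sets, 19460 had 1 symbol in the platform annotation, 1754 several, and 12083 were not listed. For 769 genes with more than 1 probe set the highest mean was taken, leaving 18417 genes. Columns of other samples: 0.

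Each gene's group difference came from limma 3.58.1 under R 4.3.3, without covariates or a filter, with Benjamini-Hochberg adjustment over all 18417 genes and a threshold of 0.05. The fit was tested on simulated data. The members and lists were chosen with earlier results of these data known. The rule for naming list genes took all called genes of a list, or the 2 with the smallest p where none was called. Other list genes in the text, such as MAPKAP1 and PHLPP2, were named outside this rule. For likeness, the 2 best correlated genes of each member were named. Alternatives were other normalization, centring, filters, rows, probe sets, priors, weights, a replicate block, thresholds and leaving out each array.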

Additional observations from a re-analysis of the deposited data

How the results depend on the processing

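The differences of CCNG2, TSC22D3, FOXO1 and IRS2 kept their direction and side of the threshold under all 14 alternative fits. BCL6 (0.61) did not pass with all rows tested, and leaving out single arrays gave 0.54 to 0.67. FOXO4 passed without the dimmest 40% of genes (0.58), with array weights (0.52) and with the replicate number as a block (0.58); leaving out single arrays gave 0.47 to 0.67. INSR passed with array weights (0.50), and leaving out single arrays gave 0.30 to 0.60. FOXO3 changed sign with quantile normalization (-0.012), centring (-0.022) and array weights (-0.17), and leaving out single arrays gave -0.12 to 0.31; it was called in none. The cause was not tested.

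Of the 8 genes, those called were 5 with array weights and 2 to 5 without single arrays. Over all genes, 220 were higher and 465 lower. This became 101 and 307 with all rows tested, where 33297 rows were tested, 1348 and 1517 with array weights, 416 and 729 with the replicate block, 64 and 197 at adjusted p under 0.01, and 494 and 805 under 0.10. Without single arrays the ranges were 63 to 739 and 199 to 826, both highest without siChe-1 replicate 1. Of called genes 32.1% were higher, and 20.0% after centring. Pathway genes higher and lower were 2 and 2 with all rows tested, 30 and 15 with array weights, 3 and 2 at adjusted p under 0.01, and 2 to 18 and 2 to 10 without single arrays; 14 were higher under 0.10. None of the 17 list genes named by the rule changed sign.

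Deviations from the group means correlated at 0.23, 0.064 and -0.045 between same-numbered arrays. Between differently numbered arrays they correlated at -0.23 to 0.16. With so few arrays this does not settle whether the numbers pair the samples, and the main fit did not use them. PHLPP2 passed with the block (adjusted p = 0.0319). HDAC5 lost its call with the block (adjusted p = 0.0538), with centring (0.0735) and with the intensity trend (0.0680), INPP4B with centring (0.0557), TNFSF10 with quantile normalization (0.0574) and DUSP1 with the intensity trend (0.0549). With all rows tested, the called list genes that lost their call were the 11 that lost it without a single array. Having 3 arrays a group limits the precision.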
